A study of Mus musculus with 24 samples.

Results

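The ephrins, Eph receptors, netrins and netrin receptors were examined in the spinal nerve roots of C57BL/6 mice. The members were the 34 genes, of 37074 gene names on the array, whose symbol in the files reads as an ephrin (Efna or Efnb), an Eph receptor (Epha or Ephb), a netrin (Ntn or Ntng) or a netrin receptor (Dcc, Neo1 or Unc5a to Unc5d). The rule uses the symbols alone. They fall into 5 ephrin-A and 3 ephrin-B ligands, 9 EphA and 5 EphB receptors, 4 netrins, 2 netrin-G genes and 6 netrin receptors. Efferent nerve fibres (EN, the ventral root) and afferent nerve fibres (AN, the dorsal root) arising from spinal cord segments L4 to L6 were dissected separately at birth (P0) and at the ages of 1 W, 3 W and 5 W. Each of the 8 groups has 3 one-colour Agilent arrays, 24 in all. The labels name no transgene or treatment. Per the study's methods, mice of both sexes were used, the tissue of several animals was collected by fibre and age, and the 3 arrays of a group stand for independent experiments. Values are log2 signals after quantile normalization, and a difference of 1 is a doubling of the signal. The design asks how the 2 fibres differ at each age and how each fibre changes from P0.

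Ephrins and Eph receptors are membrane-bound partners that signal at contact between cells. Ephrin-A ligands are tethered by a lipid anchor and bind mainly EphA receptors, ephrin-B ligands span the membrane and bind mainly EphB receptors, and EphA4 binds both. Signals can run through the receptor kinase and back through the ligand, and they often repel growing axons, as in the choice of motor axons between the dorsal and ventral limb. Netrins are secreted, laminin-related cues that attract axons through Dcc and Neo1 and repel them through Unc5 receptors, whereas netrin-G proteins stay on the membrane and bind Lrrc4-family partners instead. In a nerve root the cell bodies of the axons lie elsewhere, in the spinal cord or the dorsal root ganglion, and resident cells are mostly Schwann cells, with fibroblasts, endothelium and macrophages. In such bulk samples, fewer cells of a type and less RNA per cell cannot be told apart.

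The array reads each gene through 60-base probes, and the value of a gene is that of its probe with the highest mean over the 24 arrays. The probes below are those of the members that differed between fibres in the unpaired fit, except Efnb2. Efna5 is added for its large fall with age, and the pair for Ephb2 is shown because its 2 probes moved in opposite directions. Bases 31 to 60 are printed 5′ to 3′ as the array files give them. Capitals mark the hexamer AATAAA, the common polyadenylation signal, searched on the printed strand only. It occurs in those bases of 6 of the 34 member probes and of 8.1% of all 56605 gene probes.
Epha5, mm9 chr5:84496417-84496476, minus strand: acagagattttcatggaaaatggatacagt
Epha8, mm9 chr4:136485335-136485394, minus strand: tgtgatgagAATAAAtactgtctcatcttc
Ephb2, brightest probe, mm9 chr4:136209527-136209586, minus strand: gaattgaatggaAATAAAtgctttagttat
Ephb2, other probe, mm9 chr4:136211203-136211262, minus strand: cgcctgcctcggttctcctcttcctccacg
Ntn5, mm9 chr7:52949867-52949926, plus strand: tgtcacAATAAAggctcatgtcttgtggaa
Ntng1, mm9 chr3:109946348-109946407, minus strand: gaggatcttcttggcgccaaggctaattgt
Efna4, mm9 chr3:89138180-89138239, minus strand: caagcacaccttccaagtcaccccaaggaa
Efna5, mm9 chr17:62952429-62952488, minus strand: ttgaaatgctgacattatataaacgtaaaa
Positions are those the array annotation gives. Exon and intron boundaries of this build were not analysed here.

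Of the 34 members, 30 were tested, because each of the 3 arrays in 1 or more groups read the probe as well above background, and 28 were so on all 24 arrays. Epha10 was above background on 23 arrays and Epha6 on 22. The 4 members not tested were Ntn4 and Unc5d, on 0 arrays, Epha1, on 2 arrays, and Ntng2, on 8 arrays. These 4 were below the detection limit in most samples. The brightest probe lies on the chromosome of its gene for 33 members. The exception is Dcc, whose brightest probe is annotated on chromosome 7 (68417162 to 68417221 on mm9), away from the gene, and consists largely of 17 GAA triplets in a row, a repeat of which 15 gene probes hold 6 or more. It read between 16.65 and 17.64 on every array. The other 5 Dcc probes lie on the chromosome of the gene and were well above background in 15 of 120 array values, with values between 2.53 and 7.11. The value named Dcc below is that of the repeat probe, and it goes against its label as a measure of Dcc.

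Within their group, arrays correlated at a mean r between 0.961 and 0.993, and the lowest was AN 3 W replicate 3. The Schwann cell list (Mbp, Pmp22, Prx, Egr2, Sox10) was high in every group, with a mean log2 signal between 15.05 and 16.96. Motor neuron markers averaged 5.00 to 6.38 in all groups, and Mnx1 was not well above background in any group. Sensory neuron markers (Avil, Calca, Tac1, Scn10a, Trpv1, P2rx3) averaged 10.37 to 10.76 in EN at P0, within the range in AN at that age (10.14 to 11.83). In EN they lay between 6.79 and 8.10 from 1 W on. In AN they lay between 11.30 and 11.72 at 1 W, between 8.79 and 12.69 at 3 W and between 7.09 and 10.15 at 5 W. The EN samples at P0 thus did not differ by these markers from AN beyond their spread, against what their label names. AN 3 W replicate 3 had a log2 signal of 14.03 for Scn10a, a nociceptor sodium channel, against 9.18 and 8.95 on the other 2 arrays.

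Between AN and EN, 7 of the 30 tested members differed at 1 or more ages in the unpaired fit. Epha5, Ephb2, Ntn5 and Ntng1 were higher in AN, and Epha8, Efnb2 and Efna4 were lower in AN. At P0 none passed (adjusted p below 0.05 in limma, 0 of 30 in each direction), where 0.222% of all 36409 tested probes were higher in AN and 0.516% lower. At an unadjusted p below 0.05 in limma, 5 members passed at P0. The share of all tested probes at that threshold is not given here, so this count is not read as particular to the members. At 1 W, 0 members were higher and 2 lower, against 2.74% and 1.26% of all tested probes. At 3 W, 3 were higher and 2 lower, against 3.07% and 2.82%. At 5 W, 4 were higher and 3 lower, against 3.52% and 3.24%. The median AN-EN difference of the members on the log2 scale was 0.12, −0.13, −0.08 and 0.02 from P0 to 5 W, beside 0.01, −0.06, −0.03 and −0.03 over all tested probes.

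AN and EN arrays of 1 age and replicate number deviated together from their group means, so they were treated as pairs. The correlation of these deviations within a pair was weakest at 3 W, at 0.107 to 0.214, against 0.379 to 0.646 at the other ages. In the paired fit with the replicate block, more members passed, namely 3 at P0 and 6 after 1 W, against 3.85% and 10.8% of all tested probes in either direction, and 11 after both 3 W and 5 W, against 21.1% and 23.5%. All 14 calls named above held in it. At P0 it added Epha6 (log2 difference −1.27, adjusted p = 0.00842 in the paired limma fit), Ephb6 (−0.75, adjusted p = 0.0181) and Ntn5 (0.79, adjusted p = 0.0151). The Epha6 probe was well above background on 2 of 3 AN arrays at P0. A second Epha6 probe, above background on all 24 arrays, had closer means there, 6.13 in AN and 6.42 in EN. At 1 W it added Efna2 (0.61, adjusted p = 0.00624), Epha5 (0.39, adjusted p = 0.021), Ephb1 (0.46, adjusted p = 0.0483) and Ntng1 (0.56, adjusted p = 0.0334), all higher in AN. At 3 W it added Efna2 (0.51, adjusted p = 0.00643) and Ephb2 (0.75, adjusted p = 0.0177) as higher in AN. The other Ephb2 probe had means of 8.07 in AN and 8.33 in EN at 3 W, the opposite direction. Lower in AN at 3 W were Efna3 (−0.49, adjusted p = 0.0112), Efna4 (−0.44, adjusted p = 0.0226), Ephb1 (−0.60, adjusted p = 0.0107) and Ephb3 (−0.52, adjusted p = 0.0132). Another tested Efna3 probe was higher in AN at 3 W, though well above background on only 1 of 3 AN arrays and on no EN array. At 5 W it added Epha10 (−0.62, adjusted p = 0.0382), Ephb1 (−0.42, adjusted p = 0.0392), Ephb3 (−0.45, adjusted p = 0.0226) and Unc5b (0.80, adjusted p = 0.0145 paired and 0.0703 unpaired in limma). The other Epha10 probe was higher in AN at 5 W, again well above background on only 1 of 3 AN arrays and on no EN array. By its brightest probe, Ephb1, a receptor for ephrin-B ligands, thus passed as higher in AN at 1 W and as lower in AN at 3 W and 5 W. Its other probe, above background on all 24 arrays, was lower in AN at each of these ages. Its means in AN and EN were 7.15 and 7.28 at 1 W, 6.73 and 7.22 at 3 W, and 7.36 and 7.82 at 5 W.

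Epha5, a receptor for ephrin-A ligands, had the lowest p of the members for a change of the fibre difference with age. The EN arrays read 10.16, 10.47 and 10.30 at birth (P0), 9.75, 9.95 and 9.96 after 1 W, 7.70, 7.67 and 7.55 after 3 W, and 6.63, 6.27 and 7.18 after 5 W. The AN arrays read 10.39, 10.65 and 10.47 at birth, 10.16, 10.21 and 10.45 after 1 W, 9.25, 9.08 and 8.95 after 3 W, and 8.43, 8.43 and 8.97 after 5 W. The groups overlapped at P0, and from 1 W on every AN array lay above every EN array. AN exceeded EN by 1.45 on the log2 scale at 3 W (SE 0.19, 2.73-fold, adjusted p = 0.000119 in limma) and by 1.92 at 5 W (SE 0.19, 3.78-fold, adjusted p = 5.58e-06), while the difference at 1 W was 0.39 (adjusted p = 0.374, and 0.021 in the paired fit). The change of the AN-EN difference between the 4 ages passed the F test (adjusted p = 0.00458 in limma), as did 0.711% of all tested probes. Of the 5 other Epha5 probes, 3 were tested, and all 3 passed as higher in AN at 3 W and at 5 W, by 1.37 to 1.88 and, for the 2 detected on all 3 arrays of both groups, by 1.23 and 1.86. The remaining one was well above background on 2 of 3 EN arrays at 3 W and on 1 at 5 W.

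Markers of other cells also differed between the fibres. Of the 6 sensory neuron markers, 5 were higher in AN after 1 W, 2 after 3 W and 1 after 5 W. Their median log2 differences were 5.02, 3.53 and 1.53, and none of these 6 passed at P0 (median 0.38). Among the AN arrays at 5 W, Scn10a read 10.72, 9.13 and 5.79, and the array with the lowest Scn10a had the highest Epha5. Without AN 3 W replicate 3, the Epha5 difference at 3 W was 1.52 (adjusted p = 0.000383). General neuronal markers (Snap25, Syt1, Rbfox3, Stmn2) were higher in AN for 3, 2 and 2 of 4 genes after 1 W, 3 W and 5 W (medians 3.61, 2.65 and 1.68). Astrocyte markers (Aqp4, Gjb6, Slc1a2) were higher in AN for 2 of 3 genes and lower for 1 after 1 W (median 1.78), and higher for 2 after 5 W (median 2.24). Of the oligodendrocyte markers (Mog, Mobp, Opalin, Hapln2), 1 of 4 was higher in AN after 5 W (median 1.47). The part of these cells in the differences of the members was not tested.

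Ephb2, a receptor for ephrin-B ligands, was higher in AN at 5 W by its brightest probe. Its log2 signal there was 10.68, 10.29 and 10.80 in AN and 8.87, 8.81 and 9.12 in EN, with no overlap. The difference was 1.65 (SE 0.26, 3.15-fold, adjusted p = 0.000681 in limma), and at 3 W it was 0.75 (adjusted p = 0.104, and 0.0177 in the paired fit). The other Ephb2 probe, printed above, gave −0.29 at 5 W (adjusted p = 0.475), so the call rests on 1 of 2 probes.

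Ntn5, a little-studied netrin family member, and Ntng1, a membrane-bound netrin-G ligand of Lrrc4c, were both higher in AN at 3 W and 5 W in the unpaired fit, and in the paired fit also at P0 for Ntn5 and at 1 W for Ntng1. At 5 W, Ntn5 read 11.98, 11.75 and 11.72 in AN and 10.67, 10.45 and 10.19 in EN, and the groups did not overlap. AN exceeded EN by 0.69 at 3 W (SE 0.18, adjusted p = 0.0325 in limma) and by 1.39 at 5 W (SE 0.18, 2.61-fold, adjusted p = 0.00013). The call at 3 W was lost without any 1 of 5 of its 6 arrays (adjusted p up to 0.115), and without AN 3 W replicate 3 it held, with a difference of 0.89. Ntng1 read 12.50, 12.21 and 12.20 in AN against 11.04, 11.15 and 11.04 in EN at 3 W, and 12.03, 11.87 and 12.07 against 10.69, 11.23 and 11.00 at 5 W. Its differences were 1.23 (SE 0.16, adjusted p = 0.00018 in limma) and 1.02 (SE 0.16, adjusted p = 0.000811), and every AN array exceeded every EN array at both ages. Both of its other tested probes were higher in AN at both ages as well, by 1.03 to 1.48.

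Epha8, another EphA receptor, was lower in AN from 1 W on. It started at 12.54, 12.56 and 12.25 in EN and 12.32, 12.27 and 12.45 in AN, overlapping at P0. By 1 W it read 12.47, 12.68 and 12.47 in EN and 11.39, 11.48 and 11.09 in AN, and the separation remained at 5 W, where it read 11.21, 11.18 and 11.16 against 10.21, 10.08 and 10.29. The AN-EN difference was −0.11 at P0 and −1.22 at 1 W (SE 0.15, adjusted p = 0.000337 in limma). It was −1.04 at 3 W (adjusted p = 0.000364) and −0.99 at 5 W (adjusted p = 0.000462). The change of this difference with age passed the F test (adjusted p = 0.038 in limma) and was lost when any 1 of 19 of the 24 arrays was left out, among them each of the 6 arrays at P0 (adjusted p up to 0.138). With the replicate block, 7 members passed that F test, namely Efna4, Epha5, Epha8, Ephb1, Ephb2, Ephb6 and Unc5b, against 5.58% of all tested probes.

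The ligands that differed in the unpaired fit were Efnb2, an ephrin-B, and Efna4, an ephrin-A. Efnb2 read 12.28, 12.45 and 12.36 in EN and 11.70, 11.94 and 11.58 in AN at 1 W, with no overlap. It was lower in AN by 0.62 at 1 W (SE 0.17, adjusted p = 0.0477 in limma), by 0.61 at 3 W (adjusted p = 0.0405) and by 0.74 at 5 W (adjusted p = 0.0123). The calls at 1 W and 3 W were lost without any 1 of the 6 arrays compared (adjusted p up to 0.213 and 0.141), and that at 5 W without AN replicate 2 or EN replicate 1 (up to 0.0834). Efna4 read 7.15, 7.03 and 7.63 in EN and 6.34, 6.34 and 6.54 in AN at 5 W, a difference of −0.87 (SE 0.17, adjusted p = 0.00348 in limma), with no overlap. Of the endothelium list (Pecam1, Cdh5, Kdr, Cldn5) 1 of 4 genes, and of the fibroblast and meninges list (Col1a1, Dcn, Lum, Pdgfra, Ptgds) 2 of 5, were also lower in AN at 5 W (median log2 differences −0.39 and −0.48). Their part in these results was not tested.

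**Figure D1:**
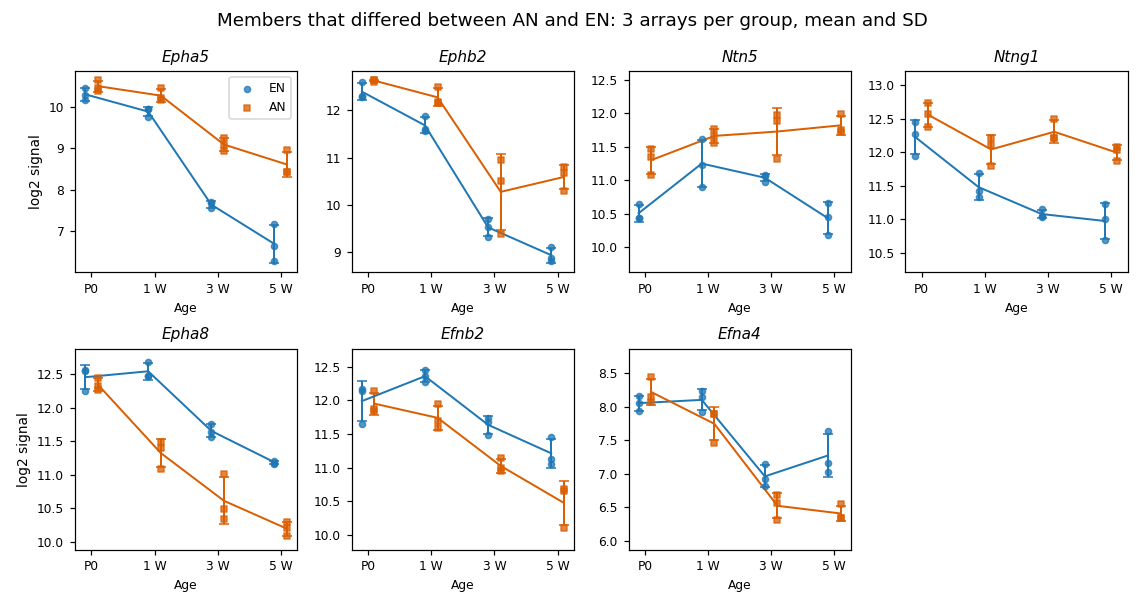
Log2 signal (vertical axis) by age (horizontal axis) of the 7 members that differed between AN (orange squares) and EN (blue circles) in the unpaired fit. Points are single arrays, lines join the means of 3 arrays and bars are SD. The Epha5 lines part after 1 W, with AN 1.92 above EN at 5 W, and Epha8 is lower in AN from 1 W on.

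Of the netrin receptors, none passed between the fibres in the unpaired fit, and Unc5b passed at 5 W in the paired one. Neo1, which binds netrins and Rgm proteins, differed between the fibres by −0.25 to 0.18 over the 4 ages. Unc5c, which directs axons away from netrin, differed by 0.82 at 1 W (adjusted p = 0.181) and 0.79 at 3 W (adjusted p = 0.145). At 3 W, Unc5c read 6.45, 6.73 and 7.79 in AN, and the high array was replicate 3, the one with high sensory neuron markers. Unc5b differed by −0.61 at 1 W (adjusted p = 0.266) and by 0.80 at 5 W (adjusted p = 0.0703, and 0.0145 in the paired fit). Ntn1, the main netrin of the developing cord, differed by −0.31 to −0.14 (SE 0.24). Epha4, a receptor of motor axon guidance, differed by −0.33 to −0.02 (SE 0.22).

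Over development the members fell more often than they rose. In EN, 2 rose and 5 fell at 1 W, against 15.5% and 11.6% of all tested probes, 5 rose and 14 fell at 3 W, against 29% and 26%, and 3 rose and 17 fell at 5 W, against 28.2% and 26%. In AN, 3 rose and 7 fell at 1 W, against 12.3% and 9.35%, 4 rose and 16 fell at 3 W, against 26.8% and 24.9%, and 4 rose and 16 fell at 5 W, against 26.4% and 24.2%. The 17 members that fell in EN at 5 W make up 56.7% of those tested and the 16 in AN 53.3%. The median log2 difference at 5 W was −0.75 in EN and −0.62 in AN, beside 0.04 and 0.03 over all tested probes. All later ages in a fibre are compared with the same P0 arrays, and these comparisons share arrays with those between the fibres. Of the members that fell by 5 W, 16 fell in both fibres, and Unc5b passed in EN only (−1.42) with −0.54 in AN (adjusted p = 0.0884). The share of all tested probes that fell in both fibres is not given here, so this overlap is not read as particular to the members. The members whose brightest probe passed in none of the 10 comparisons of the unpaired fit were Epha4, Ephb3, Ephb4 and Ntn1. Of these, Ephb3 passed between the fibres at 3 W and 5 W in the paired fit.

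**Figure D2:**
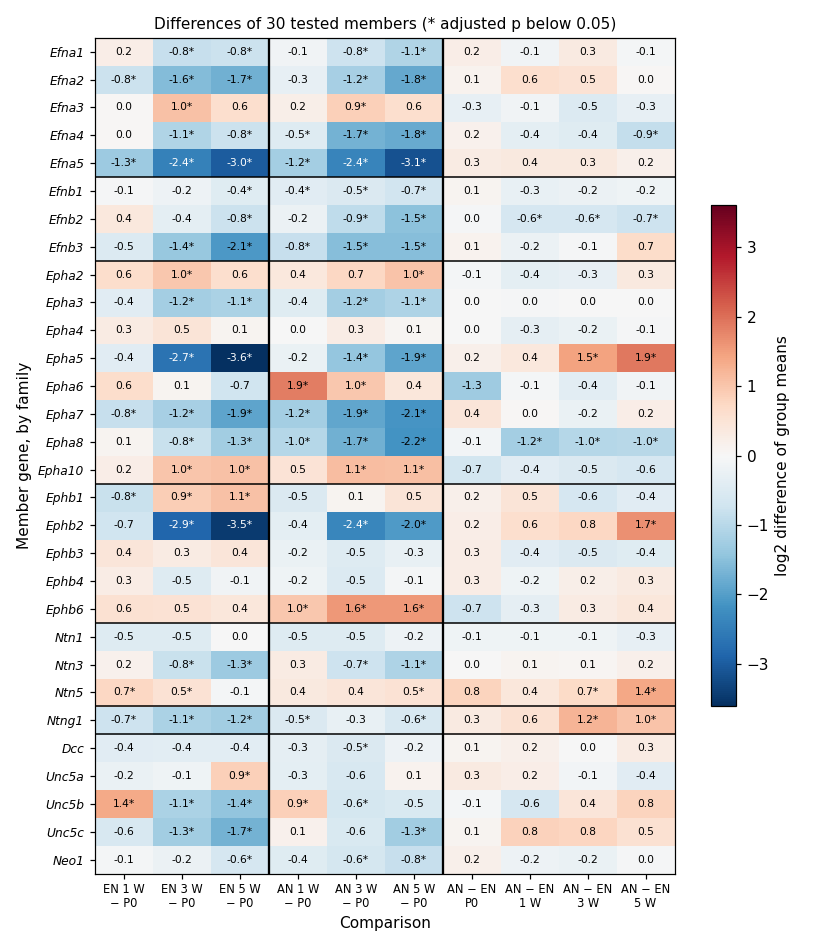
Log2 differences of group means for the 30 tested members (vertical axis, grouped by family from ephrin-A ligands at the top to netrin receptors at the bottom) in 10 comparisons (horizontal axis). Colour gives the difference, blue below and red above 0, and an asterisk marks an adjusted p below 0.05. Blue dominates the 3 W and 5 W columns against P0 in both fibres, with Epha5 in EN at −3.6 the lowest.

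Since sensory neuron markers were high in both fibres at P0, 1 W was also taken as the start, a choice made after seeing the data. From 1 W to 5 W, 3 members rose and 18 fell in EN, against 13.7% and 14.7% of all tested probes, and 1 rose and 15 fell in AN, against 15.4% and 15.9%. From P0 to 5 W, all 3 proliferation markers (Mki67, Top2a, Ccnb1) fell in both fibres, from a mean log2 signal of 12.54 to 12.82 in EN and 13.15 to 13.56 in AN at P0 to 8.38 to 8.80 and 8.64 to 9.10 at 5 W. General neuronal markers averaged 12.61 to 13.15 in EN at P0, 9.55 to 11.20 at 1 W and 9.79 to 10.40 at 5 W, and 3 of 4 were below P0 at 1 W and at 5 W. In AN they averaged 12.68 to 13.79 at P0 and 10.16 to 12.93 at 5 W, and 2 of 4 fell. None of the 4 skeletal muscle markers rose, and 3 fell in EN and 1 in AN by 5 W. The part of these cells in the falls of the members was not tested.

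Among the ephrin-A ligands, 4 of 5 fell by 5 W in each fibre. Efna5, which repels axons that carry EphA receptors, was below P0 at every later age. The EN arrays read 12.36, 12.55 and 12.37 at birth, then 10.99, 11.02 and 11.37 after 1 W, 10.03, 10.01 and 9.94 after 3 W and 9.25, 9.60 and 9.37 after 5 W. The AN arrays read 12.69, 12.77 and 12.69 at birth, then 11.39, 11.45 and 11.62 after 1 W, 10.10, 9.92 and 10.98 after 3 W, and 9.39, 9.73 and 9.63 after 5 W. No array after P0 reached the P0 values of its fibre. The change at 5 W was −3.02 in EN (SE 0.20, 8.09-fold, adjusted p = 5.18e-10 in limma) and −3.13 in AN (SE 0.20, 8.78-fold, adjusted p = 3.05e-10). A further Efna5 probe fell by 2.84 and 3.22, whereas the gene's remaining tested probe gave −0.09 in EN (adjusted p = 0.764) and −1.02 in AN (adjusted p = 0.00178). Efna2 fell by 1.75 in EN and 1.84 in AN, Efna4 by 0.78 and 1.81, and Efna1 by 0.77 and 1.08. Efna3 rose at 3 W, by 1.05 in EN (adjusted p = 0.00624) and 0.85 in AN (adjusted p = 0.0224, and up to 0.0927 without either of 2 of the 6 arrays), but another of its probes went the opposite way. In EN that probe was at least 2.53-fold lower at 3 W, where it was not well above background, and in AN it passed as lower (adjusted p = 0.0261) while being well above background on 1 of 3 arrays at 3 W. Such bounds set the mean of the bright group against the lowest signals above background on the dim arrays.

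All 3 ephrin-B ligands fell by 5 W in both fibres. Efnb3 read 11.85, 11.85 and 11.48 in EN at P0 and 9.75, 9.69 and 9.54 at 5 W, a fall without overlap. Its change was −2.07 in EN (SE 0.22, adjusted p = 3.96e-07 in limma) and −1.54 in AN (SE 0.22, adjusted p = 1.39e-05). Efnb2, an ephrin of vessels as well as axons, fell by 0.78 in EN and 1.48 in AN, and Efnb1 by 0.42 and 0.68.

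The EphA receptors split. Epha3, Epha5, Epha7 and Epha8, 4 of the 8 tested, fell by 5 W in both fibres, and Epha10, a member without kinase activity, rose in both. Epha5 fell by 3.61 in EN (SE 0.19, 12.2-fold, adjusted p = 3.26e-11 in limma) and by 1.89 in AN (SE 0.19, 3.71-fold, adjusted p = 1.2e-07). Epha7 fell by 1.92 in EN and 2.12 in AN, and all 3 of its other tested probes passed as lower in both fibres, 1 of them not well above background in EN at 5 W. Epha8 fell by 1.27 in EN and by 2.15 in AN (SE 0.15, adjusted p = 1.19e-09 in limma), and Epha3 by 1.14 and 1.12. Epha10 rose by 1.04 in EN (adjusted p = 0.00515) and 1.09 in AN (adjusted p = 0.00413), but its other probe went the opposite way, so no direction can be given for the gene. At 5 W that probe was not well above background in EN, at least 2.76-fold lower than at P0 (adjusted p = 2.22e-05), and in AN it passed as lower (adjusted p = 0.000359) while being well above background on 1 of 3 arrays at 5 W. Epha2, a receptor known from epithelia, rose by 0.98 in EN at 3 W (adjusted p = 0.0396) and by 1.04 in AN at 5 W (adjusted p = 0.0327 in limma), from 11.59, 10.54 and 10.89 to 12.50, 11.14 and 12.49, with overlap. The call in EN was lost without any 1 of 5 of the 6 arrays compared (adjusted p up to 0.113) and that in AN without any 1 of 4 (up to 0.136, with values of 0.80 to 1.49). Epha6 rose in AN by 1.85 at 1 W (adjusted p = 0.000316) and by 0.99 at 3 W (adjusted p = 0.0127, and 0.0674 without AN replicate 3). A second Epha6 probe, above background on all 24 arrays, had AN means of 6.13 at P0, 6.94 at 1 W and 6.28 at 3 W. Epha4 kept a log2 signal between 9.15 and 10.34 on all 24 arrays, and its difference at 5 W was 0.11 in EN (95% confidence interval −0.36 to 0.58) and 0.08 in AN (−0.39 to 0.55).

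Among the EphB receptors, by their brightest probes, Ephb2 fell, Ephb1 rose in EN and Ephb6 rose in AN. Ephb2 read 12.28, 12.60 and 12.31 in EN and 12.64, 12.63 and 12.61 in AN at P0, well above all 5 W arrays. Its change at 5 W was −3.46 in EN (SE 0.26, 11-fold, adjusted p = 3.75e-09 in limma) and −2.04 in AN (SE 0.26, adjusted p = 3.24e-06). The other Ephb2 probe rose by 0.84 in EN (adjusted p = 0.00279) and gave 0.43 in AN (adjusted p = 0.101), the opposite direction. No direction can thus be given for the gene. Ephb1 read 9.77, 9.40 and 9.57 in EN at birth, 8.69, 8.94 and 8.70 after 1 W and 10.29, 10.67 and 10.97 after 5 W. It fell by 0.80 at 1 W (adjusted p = 0.0091, while its other probe gave 0.27) and was 1.06 above P0 at 5 W (SE 0.21, adjusted p = 0.000373 in limma). Ephb6, a receptor without kinase activity, read 13.29, 12.03 and 12.11 in AN at P0 and 14.13, 13.98 and 13.99 at 5 W, a rise of 1.56 (SE 0.23, adjusted p = 1.68e-05). In EN its difference was 0.41 (adjusted p = 0.146), and the other Ephb6 probe rose in both fibres, by 0.73 in EN (adjusted p = 0.00483) and 1.02 in AN (adjusted p = 0.000299). Ephb3 differed from P0 at 5 W by 0.43 in EN and −0.28 in AN, without a call. Ephb4 differed by −0.14 and −0.08 by its brightest probe, while a second Ephb4 probe fell by 0.92 (adjusted p = 0.000233) and 1.15 (adjusted p = 2.23e-05).

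**Figure D3:**
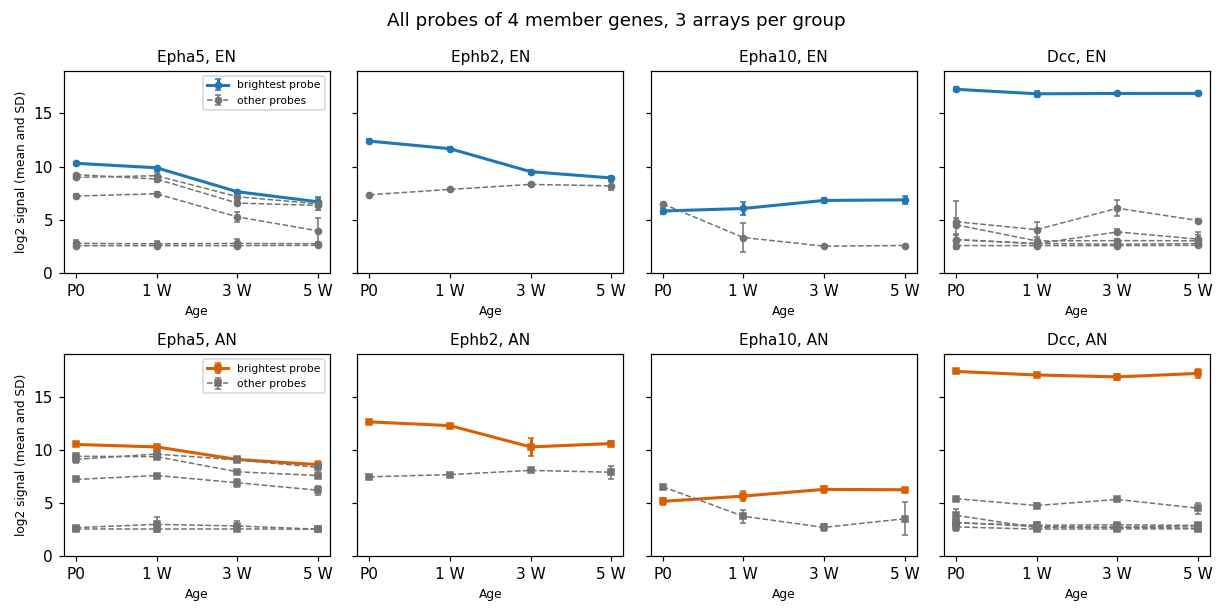
Mean log2 signal and SD (vertical axis) by age (horizontal axis) for every probe of Epha5, Ephb2, Epha10 and Dcc, in EN (top) and AN (bottom), 3 arrays per group. The brightest probe, used for the gene, is drawn in colour and the others in grey. The Epha5 probes above background fall together, the Ephb2 and Epha10 probes part, and the brightest Dcc probe stays near 17 while the others lie far lower.

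Among the netrins, Ntn3 fell and Ntn5 rose in AN. Ntn3 fell by 1.32 in EN (SE 0.15, adjusted p = 9.13e-07 in limma) and 1.11 in AN (adjusted p = 7.11e-06), while its other probe gave −0.62 in EN (adjusted p = 0.157) and 0.27 in AN (adjusted p = 0.554). Ntn5 in EN rose by 0.74 at 1 W (adjusted p = 0.00588) and was back at −0.08 at 5 W, whereas in AN it was 0.52 above P0 at 5 W (adjusted p = 0.025, and up to 0.11 without either of 2 of the 6 arrays). Ntng1 fell by 1.25 in EN (SE 0.16, adjusted p = 4e-06 in limma) and by 0.57 in AN (adjusted p = 0.00749). Ntn1 read 8.82, 9.25 and 8.27 in EN at P0 and 8.42, 9.30 and 8.56 at 5 W, and differed from P0 by −0.48 to −0.02 over ages and fibres, without a call.

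Of the netrin receptors, Unc5b, which is known from vessels and axons, was highest at 1 W. The EN arrays read 10.25, 10.12 and 9.70 at birth, 11.47, 11.31 and 11.45 after 1 W, 9.10, 8.74 and 8.79 after 3 W and 8.92, 8.69 and 8.22 after 5 W. The gene rose by 1.38 at 1 W (SE 0.26, adjusted p = 0.000657 in limma) and was 1.42 below P0 at 5 W (adjusted p = 0.000131). In AN it rose by 0.86 at 1 W (adjusted p = 0.0218) and was 0.64 below P0 at 3 W (adjusted p = 0.0437, and 0.0547 in the paired fit), and these calls were lost without any 1 of 4 and of 3 of the 6 arrays (up to 0.107 and 0.222). Unc5c fell by 1.70 in EN (SE 0.30, adjusted p = 0.000114) and 1.25 in AN (adjusted p = 0.00204). Unc5a, another repulsive receptor, rose by 0.87 in EN at 5 W (adjusted p = 0.00552), from 8.55, 8.88 and 8.42 to 9.56, 9.54 and 9.34. Neo1 fell by 0.60 in EN (adjusted p = 0.029, with overlap, and up to 0.158 without any 1 of 3 of the 6 arrays) and 0.82 in AN (adjusted p = 0.00453). The other Neo1 probe changed less, with means at P0 and 5 W of 6.16 and 6.06 in EN and of 6.38 and 6.04 in AN. The Dcc repeat probe passed once, with −0.51 in AN at 3 W (adjusted p = 0.0297, and 0.106 without AN replicate 3), so that without it 15 members fell in AN at 3 W.

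**Figure D4:**
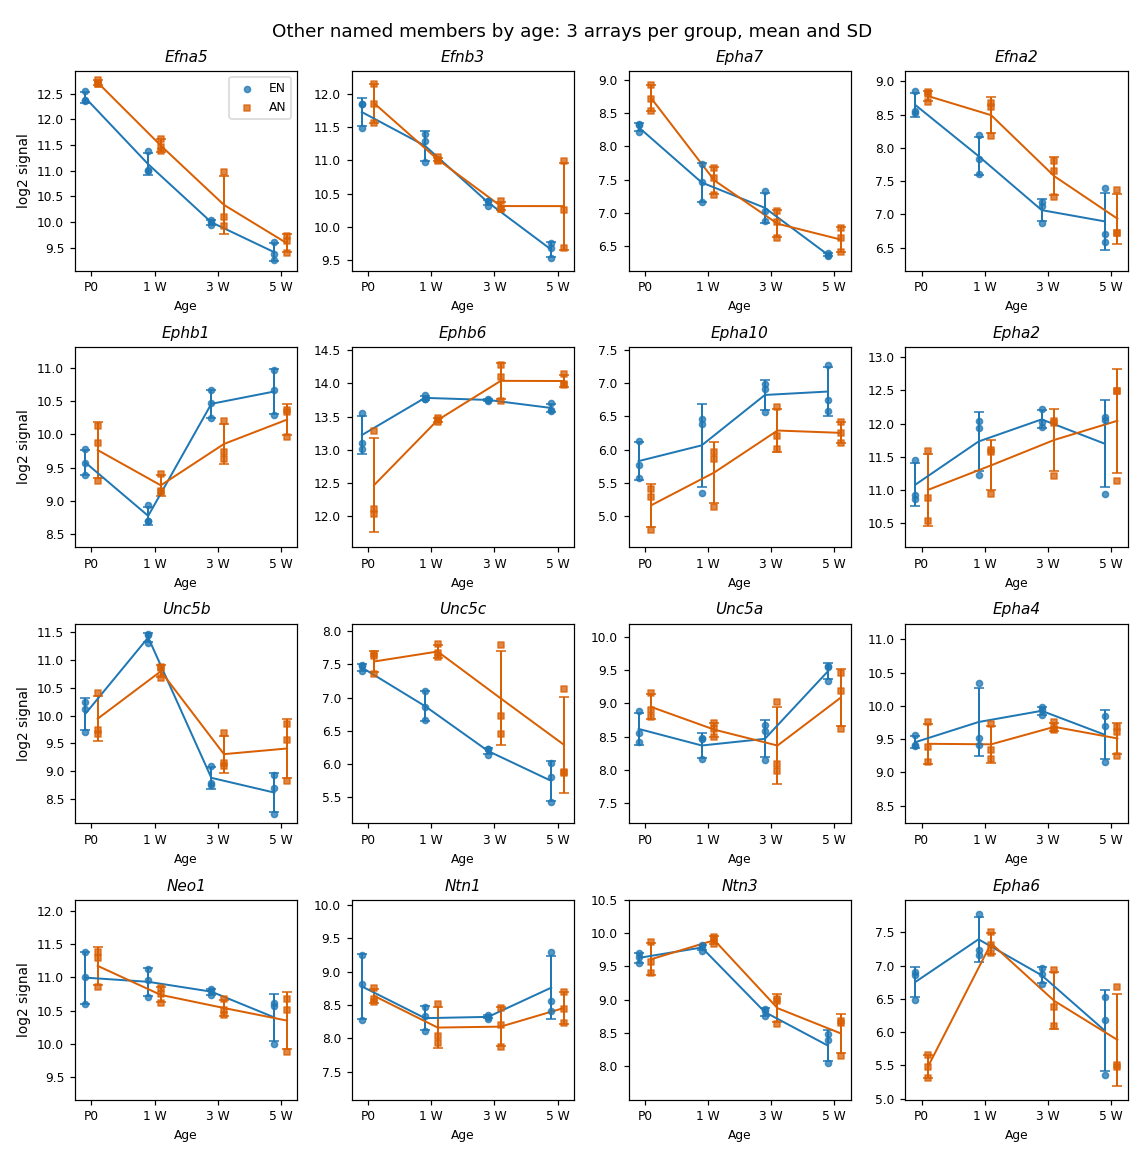
Log2 signal (vertical axis) by age (horizontal axis) of 16 other named members in EN (blue circles) and AN (orange squares). Points are single arrays, lines join the means of 3 arrays and bars are SD. Efna5 falls by about 3 on the log2 scale in both fibres, Unc5b peaks at 1 W, and Epha4 and Ntn1 pass in no comparison of the unpaired fit.

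Partners of these receptors came from a list of 46 genes, of which 44 were tested. Draxin was above background on no array, and Grip2 on too few arrays of every group. Between the fibres, 0 partners differed at P0, 4 were higher and 1 lower in AN at 1 W (2.74% and 1.26% of all tested probes), 4 higher and 1 lower at 3 W (3.07% and 2.82%), and 5 higher and 1 lower at 5 W (3.52% and 3.24%). Dscam and Trim9, a netrin receptor and a ubiquitin ligase that binds Dcc, were higher in AN at all 3 later ages, by 2.95 and 2.59 at 1 W and 3 W for Dscam, which at 5 W was well above background on 2 of 3 EN arrays, and by 2.40, 2.25 and 2.58 for Trim9. Lrrc4c, the partner of Ntng1, was higher in AN at 1 W by 0.86 (adjusted p = 0.0395 in limma) and at 3 W by 1.67 (adjusted p = 0.000225), and Ptpro, a phosphatase of Eph receptors, at 1 W by 0.81. Trio, an exchange factor for Rac, was higher by 0.59 at 3 W and 0.61 at 5 W, and Ngef, an exchange factor bound to EphA receptors, by 1.70 at 5 W (adjusted p = 0.0157). Flrt3, an Unc5 ligand, was higher by 0.59 at 5 W. The partners lower in AN were Sipa1l1 at 1 W (−0.76), Adam10 at 3 W (−0.50) and Pitpna at 5 W (−0.32).

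By 5 W, 12 partners (27.3% of 44) rose and 15 (34.1%) fell in EN, beside 28.2% and 26% of all tested probes, and 10 (22.7%) rose and 14 (31.8%) fell in AN, beside 26.4% and 24.2%. The largest rises were of Sipa1l1, a regulator of Rap bound to EphA receptors, by 2.97 in EN and 3.67 in AN, Chn2, a Rac-inactivating chimaerin, by 2.24 and 2.40, Chn1, its sister downstream of EphA4, by 2.14 in EN, and Adam10, the protease that cuts ephrins, by 1.79 in AN. Among the partners that fell were Grip1, a scaffold of ephrin-B ligands, by 3.12 in AN, Dscam by 1.86 in AN, Trim9 by 3.70 in EN and Ptpro by 1.62 in AN. In EN at 5 W, Grip1 and Dscam passed as lower too (adjusted p = 2.21e-05 and 1.59e-05), with Grip1 well above background on 1 of 3 arrays and Dscam on 2, so no size is given.

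The arrays of P0 and 3 W share no slide, and AN and EN arrays of 1 age and number always share one. Within the slides that hold both ages, all 7 and 20 members called in EN at 1 W and 5 W and all 10 and 20 in AN kept their sign. These were 2 slides at 1 W and 1 slide at 5 W, with 1 array of the later age per fibre on each. The same arrays entered the calls, so this agreement is not independent of them. With the slide as a block, 15 members passed in EN and 16 in AN at 3 W against P0, and Efna3 and Unc5b in AN at 3 W changed sign.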

How the data were processed

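Cy3-labelled cRNA of 24 samples was hybridised to one-colour Agilent arrays, 1 sample each. Per the file headers, the scanner intensity values were made with Agilent Feature Extraction 10.7.1.1, which subtracted background within each array. The authors quantile-normalized the raw data in GeneSpring, and the log2 values they deposited are those used here. Each deposited column correlated best with the scanner values of its own array (r 0.9954 to 0.9999). Probe positions are those of mm9 in the array files.

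Groups were taken from the labels. Of 56605 gene probes, the 36409 marked well above background on all 3 arrays of 1 or more groups were fitted with limma 3.58.1 in R 4.3.3 (8 group means, lmFit and eBayes), and p-values were adjusted by Benjamini-Hochberg over all of them, with a call at 0.05. A gene is its probe with the highest mean over the 24 arrays. A moderated F test compared the AN-EN difference between the 4 ages. The labels do not say whether the arrays of a group came from separate animals, so p-values measure the spread between these samples. No depth applies, and the number of arrays limits the precision. Residuals of AN and EN arrays of 1 age and replicate number correlated at 0.107 to 0.646 in 12 pairs, above 0.1 in all, so the numbers were taken to pair the samples. The pairs at 3 W had the lowest values, 0.107 to 0.214, and all arrays of that age share a slide. This pairing comes from the data, and the 2 arrays of a pair always share a slide. In the fit with the replicate block, the AN-EN differences and the F test came from a model with a separate term for each pair. The changes since P0 used duplicateCorrelation instead (consensus correlation 0.564). Members with full values are those called between fibres or in the F test, the 5 largest rises and falls at 5 W in each fibre, and 9 textbook members of axon guidance. The members and lists were chosen with earlier results of these data known. The fit was tested on simulated data. Alternatives were another scaling, normexp, other filters, slide and replicate blocks, array weights, other probes, the methods' thresholds and leaving out each array. Of the marker lists, 2 genes are not reported here and entered no list value.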

Additional observations from a re-analysis of the deposited data

Results flagged for a closer look

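The AN-EN difference of Epha5 differed between the 4 ages by the moderated F test of limma (adjusted p = 0.00458), with AN-EN differences on the log2 scale of 0.20 at birth, 0.39 after 1 W, 1.45 after 3 W and 1.92 after 5 W. Leaving out any 1 of the 24 arrays gave adjusted p-values between 0.000637 and 0.013. The AN-EN difference of Epha8 differed between ages as well (adjusted p = 0.038), with −0.11 at P0 and −0.99 to −1.22 later. Its adjusted p ranged from 0.00809 to 0.138 over the 24 fits without 1 array and was above 0.05 in 19 of them.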

How the results depend on the processing

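The counts below are of called members, of 30. The share of all tested probes that pass also depends on the setting. Outside the unpaired fit and the replicate block between fibres, that share is not given here. Changes in these counts between settings are therefore not read as particular to the members. Between fibres at P0, where none passed, 1 did with the 75th percentile scaling, with normexp, with probes above background on all 24 arrays and with the methods' thresholds (p below 0.05 and fold above 2), 2 with the slide as a block or with array weights, and 3 with the replicate block. At 1 W (2), 1 passed with no filter and by the methods' thresholds, 4 with the slide block, 6 with the replicate block and 7 with array weights. At 3 W (5), 3 passed by the methods' thresholds, 9 with the slide block, 10 with array weights and 11 with the replicate block. At 5 W (7), 4 passed by the methods' thresholds and 11 with the replicate block. The age test (2) gave 1 with the 75th percentile and with no filter, 6 with array weights and by the methods' thresholds, and 7 with the replicate block. Against P0, array weights gave 14 in EN at 1 W (7), and the methods' thresholds 2 and 12 in EN at 1 W and 3 W and 4 and 11 in AN. Leaving out 1 array gave 0 to 1 at P0, 1 at 1 W, 3 to 4 at 3 W and 6 to 9 at 5 W between fibres, 6 to 8, 17 to 20 and 19 to 22 in EN and 6 to 9, 17 to 20 and 18 to 22 in AN at 1 W, 3 W and 5 W, and 1 to 2 in the age test. Starting from 1 W instead of P0, chosen after seeing the data, gave 14 and 21 in EN and 15 and 16 in AN at 3 W and 5 W. Of 110 single calls, the replicate block lost 3, namely Efna4 (adjusted p = 0.0521) and Ntng1 (0.0542) in AN at 1 W and Unc5b in AN at 3 W (0.0547), and changed no other. The slide block lost 11 and turned Efna3 (−0.016) and Unc5b (0.161) in AN at 3 W. The 75th percentile lost 8, no filter 6, scanner signals with quantile scaling 1, and normexp and array weights 0. Other probes of the same gene turned 14 of 101 calls. Between fibres this was Ephb2 at 5 W (−0.292). In EN these were Ephb1 at 1 W (0.273), Efna3 at 3 W (−3.17), Epha10 at 3 W and 5 W (−3.976 and −3.919) and Ephb2 (0.976 and 0.837). In AN they were Efna3 at 3 W (−1.667), Epha10 (−3.822 and −3.013), Ephb2 (0.604 and 0.431) and Ntn3 (0.029 and 0.272). The values of Efna3 and Epha10 are fitted ones of a probe well above background on at most 1 of 3 arrays at the later age. The cause was not tested in any of these. Signal over background limits Ntn4, Unc5d, Epha1 and Ntng2.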
